A study of Mus musculus with 12 samples.

Results

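The genes described here make cholesterol, sense it and move it into, within and out of cells. They are a set of 33 genes chosen by name for their place in the pathway, by a rule that uses no measured value, out of the 16411 genes listed in the deposited table. The set holds 19 enzymes of the synthesis pathway, 4 genes of the sterol-sensing machinery and 10 genes of sterol handling (2 uptake receptors, 3 transport proteins, 1 esterifying enzyme, and 2 exporters with both liver X receptors). All 33 genes passed the filter on low counts, with no gene lost.

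The data are RNA sequencing counts of untreated female mice, with 6 samples labelled as mammary tumor and 6 as benign mammary tissue. All 12 samples carried the genotype MMTV-Neu-NDL-YD5, a heterozygous transgene on the FVB background in which the promoter of mouse mammary tumor virus, active mainly in mammary epithelium, drives an activated form of the receptor HER2, so the benign tissue carried the transgene too. Benign tissue was taken from a mammary region without a visible tumor and far from the excised one, and for RNA the tumors and benign samples came from different mice. The mice were young adults, watched for tumors over a period of weeks and killed earlier when a tumor grew large, and the age of each mouse at collection is not given in the sources used here.

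Cholesterol is built from acetyl-CoA by way of mevalonate and isoprenoids, then squalene and lanosterol, in a long chain of enzymes, most of them in the endoplasmic reticulum. When sterols run low in that membrane, SCAP escorts the transcription factor SREBP2 to the Golgi, where it is cut free to switch on synthesis and uptake genes, and INSIG proteins hold SCAP back when sterols are plentiful. When sterols accumulate, oxysterols activate the liver X receptors (LXR), which switch on exporters. Adipocytes, a main cell type of the mammary fat pad, store much free cholesterol in their lipid droplets, and lactating mammary epithelium makes sterols for milk fat.

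The sterol genes did not move as one group in tumors. The tumor level was higher for 8 of the 33 genes and lower for 16, and 9 did not pass the test (edgeR quasi-likelihood test, adjusted p under 0.1). Among all 13191 genes tested, 28.2% were higher and 34.8% were lower, so the share that was higher (24.2%) was near that of all genes and the share that was lower (48.5%) was above it. The median log2 fold change, tumor minus benign, was −0.42 over the set and −0.06 over all genes tested. Every tumor was above every benign sample for 5 of the 33 genes (15.2%, against 14.7% of all genes tested) and below for 11 (33.3%, against 21.2%). Falls were also larger than rises: 12 genes fell by more than 1 on the log2 scale, and none of the 8 that rose reached 1 in this fit, although Dhcr7 was at 1.02 with DESeq2. Without benign samples 3, 4 and 6, which held skeletal muscle transcripts, 8 genes were higher and 15 lower. In that fit, 3629 of all 13604 genes tested were higher and 3906 were lower.

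**Figure D1:**
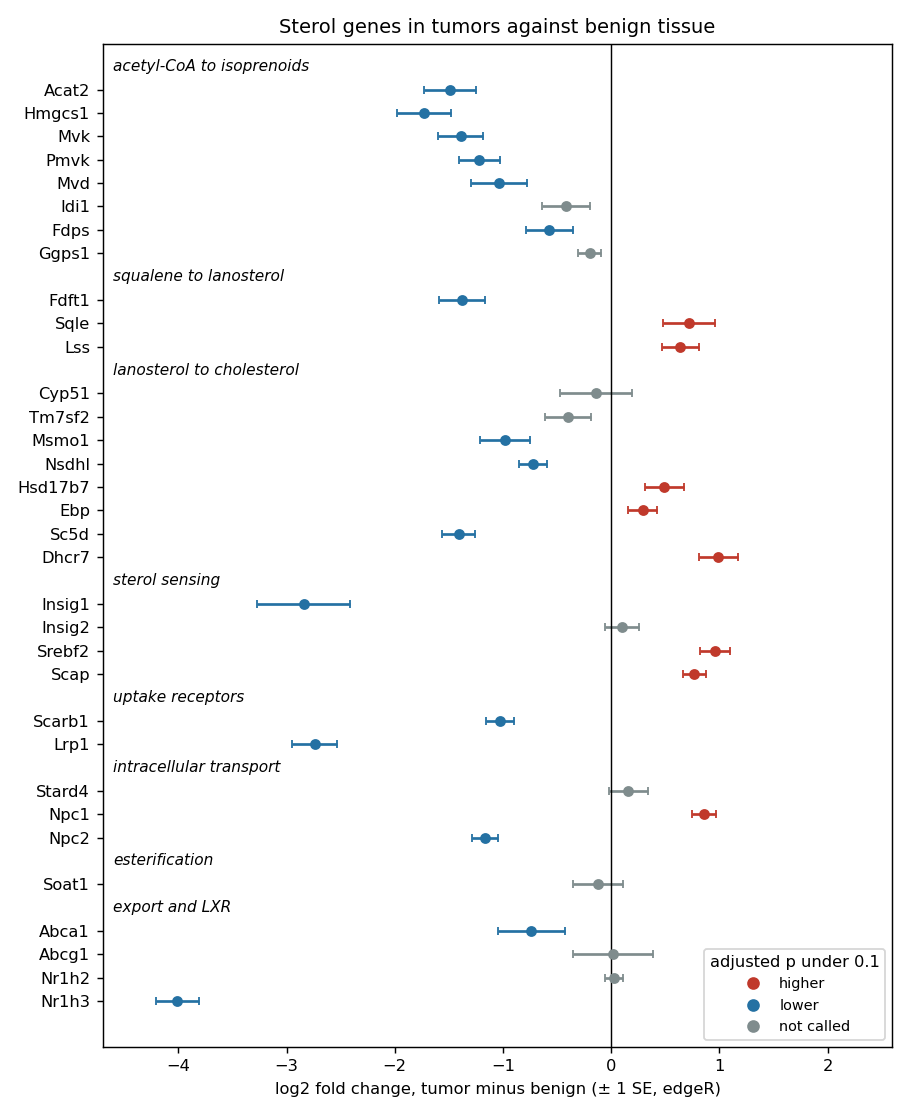
Log2 fold change, tumor minus benign, of the 33 sterol genes in pathway order (x axis, with bars of 1 standard error from edgeR, n = 6 per group), coloured by whether the gene was higher, lower or not called at an adjusted p under 0.1. The early enzymes from Acat2 to Fdft1 lie left of 0, Sqle, Lss and Dhcr7 lie right of it, and Nr1h3 has the largest fall at −4.01.

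The tissue itself differed strongly between groups. Total counts ranged from 5240853 to 8588567 per sample. The summed level of 6 adipocyte markers was 7544 to 18656 CPM (counts scaled to library size, here with TMM factors) in benign tissue and 11.3 to 110.0 CPM in tumors, with 6 of 6 markers lower. The sum of 6 luminal epithelial markers was 870.0 to 2326 CPM in the benign samples and 2543 to 4253 CPM in tumors, with 5 of 6 higher and Krt19 lower. All 5 endothelial and all 5 fibroblast markers were lower in tumors, and of 7 macrophage markers 5 were lower and 1 (Fcgr1) was higher, with sums of 245 to 460.0 CPM in the benign samples and 120.0 to 247 CPM in tumors. Among the benign samples, 3, 4 and 6 held 49763, 32702 and 84483 CPM of 8 skeletal muscle markers, against at most 347 CPM in the others. Benign samples 4 and 6 also held the most brown fat transcripts (sums of 2955 and 807 CPM over 4 markers, against at most 178), and benign 1 held 642 CPM over 6 B and T cell markers, against at most 6.99. In such bulk samples, fewer cells of a type and less RNA per cell cannot be told apart, and the part of these shifts in the results that follow was not tested.

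The first stretch of the pathway, from acetyl-CoA to the isoprenoids, was lower in tumors. Of its 8 genes, 6 fell (75.0%, against 34.8% of all genes tested), none rose and 2 did not pass the test, with a median log2 fold change of −1.13. Hmgcs1, the cytosolic synthase that makes HMG-CoA, ran from 108 to 324 CPM in benign tissue (median 173) and from 41.8 to 83.7 CPM in tumors (median 54.0). The groups did not overlap. Hmgcs1 averaged 189 ± 75.6 CPM in the benign samples and 56.9 ± 14.1 CPM in tumors (mean with SD over 6 samples each), a 3.33-fold lower level in tumors with a log2 fold change of −1.73 (standard error, SE, 0.25, adjusted p = 6.5e-05 by edgeR).

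Acat2, the cytosolic thiolase that joins a pair of acetyl-CoA molecules in the step before Hmgcs1, ran from 76.9 to 192 CPM in benign tissue (median 91.5) and from 26.1 to 48.2 CPM in tumors (median 42.8). The groups again did not overlap, and benign samples 4 and 6 stood highest at 192 and 144 CPM while the other benign samples lay at or below 95.0. The log2 fold change of Acat2 was −1.49 (SE 0.24, adjusted p = 1.6e-04 by edgeR). Reads of Acat2 can be shared with its near-identical neighbour Acat3, which was listed at 0.925 ± 0.483 CPM in the benign samples and 0.828 ± 0.347 CPM in tumors (n = 6 per group), so the split between them is uncertain.

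The mevalonate kinases and the decarboxylase that follow them fell as well. Mvk, mevalonate kinase, ran from 16.5 to 33.5 CPM in benign tissue (median 30.7) and from 8.06 to 16.5 CPM in tumors (median 10.1), and benign 1 and tumor 1 met at 16.5. Its log2 fold change was −1.39 (SE 0.21, adjusted p = 9.1e-05 by edgeR). Pmvk, phosphomevalonate kinase, ran from 37.8 to 80.9 CPM in benign tissue (median 43.7) and from 17.6 to 23.4 CPM in tumors (median 21.0), with no overlap. Its log2 fold change was −1.22 (SE 0.19, adjusted p = 1.1e-04 by edgeR).

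Mvd, which removes carbon dioxide to give the first isoprenoid, ran from 12.4 to 25.5 CPM in benign tissue (median 18.4) and from 6.02 to 14.3 CPM in tumors (median 8.13). Tumors 1 and 4, at 14.3 and 12.1 CPM, were the highest, and tumor 1 lay within the benign range. The log2 fold change of Mvd was −1.04 (SE 0.26, adjusted p = 0.0043 by edgeR).

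The isoprenoid enzymes further on had smaller differences. Fdps, which makes farnesyl diphosphate, ran from 43.7 to 81.7 CPM in the benign samples and from 30.5 to 65.5 CPM in tumors and fell by 0.57 on the log2 scale (adjusted p = 0.042 by edgeR). The call for Fdps was lost without tumor 2, 3 or 6 (adjusted p of 0.12 to 0.14) and without benign samples 3, 4 and 6 (adjusted p = 0.33). Idi1, the isomerase of the first isoprenoids, ran from 45.5 to 96.9 CPM in benign tissue (median 66.2) and from 36.3 to 71.9 CPM in tumors (median 54.0), and its log2 fold change of −0.42 did not pass the test (SE 0.22, adjusted p = 0.12). Leaving out benign 2 or tumor 1 took Idi1 past the threshold, with an adjusted p of 0.092 and 0.096. Ggps1, which lengthens farnesyl diphosphate toward protein prenylation instead of sterols, had a log2 fold change of −0.20 (SE 0.11, adjusted p = 0.12) and ranged from 27.0 to 35.0 CPM in benign tissue (median 28.8) and from 22.4 to 27.7 CPM in tumors (median 26.7). Without benign 5 its adjusted p was 0.098.

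At the step to squalene and lanosterol the direction turned. Fdft1, squalene synthase, the first enzyme committed to sterols, fell, and the next enzymes, Sqle and Lss, rose. Fdft1 ran from 58.6 to 118 CPM in benign tissue (median 63.6) and from 25.9 to 39.8 CPM in tumors (median 28.8). The groups did not overlap, and benign samples 4 and 6, at 116 and 118 CPM, stood above the other benign samples, which reached 64.8. The log2 fold change of Fdft1 was −1.38 (SE 0.21, adjusted p = 1.1e-04 by edgeR).

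Sqle, squalene epoxidase, an oxygen-dependent control point of the pathway, ran from 24.8 to 62.9 CPM in benign tissue (median 37.2) and from 50.9 to 89.4 CPM in tumors (median 65.0). The 3 highest tumors (73.2 to 89.4 CPM) exceeded the benign range, and the other 3 lay inside it. The log2 fold change of Sqle was 0.72 (SE 0.24, adjusted p = 0.019 by edgeR). Lss, lanosterol synthase, which closes the sterol ring, ran from 32.4 to 55.9 CPM in benign tissue (median 41.8) and from 60.0 to 96.2 CPM in tumors (median 62.9), so that every tumor was above every benign sample. Its log2 fold change was 0.64 (SE 0.17, adjusted p = 0.006 by edgeR).

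**Figure D2:**
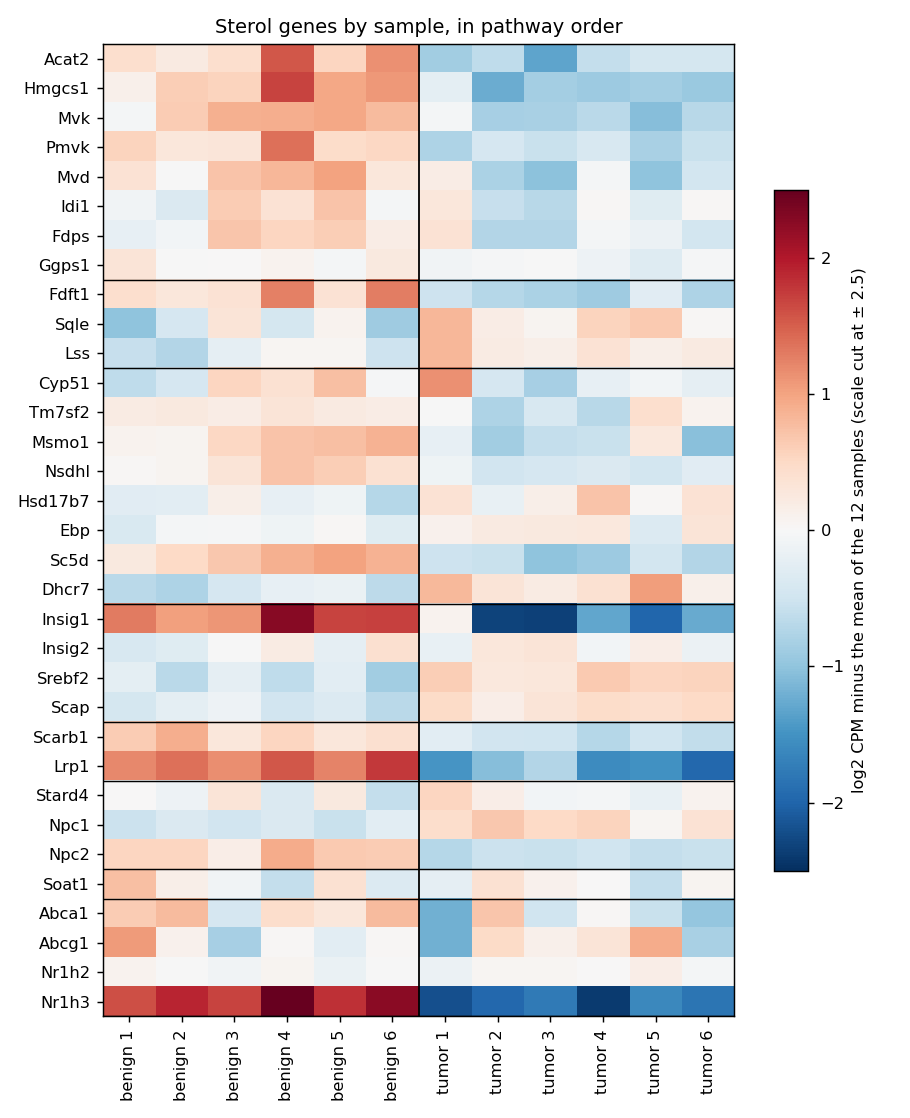
Level of each of the 33 sterol genes in each of the 12 samples, as log2 CPM minus the gene's mean over the 12 samples (colour, with the scale ending at 2.5 on either side), with genes in pathway order, a vertical line between groups and horizontal lines between roles. The top block fades from benign to tumor samples, Sqle and Lss show the opposite, and tumor 1 stands apart from the other tumors for Insig1 and Cyp51.

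Of the 8 enzymes that turn lanosterol into cholesterol, 3 were higher, 3 lower and 2 not called, shares (37.5% in each direction) near those of all genes tested (28.2% and 34.8%), with a median log2 fold change of −0.27. Sc5d, which places the double bond of the B ring and acts just before Dhcr7 in a main branch of the pathway, ran from 87.8 to 149 CPM in benign tissue (median 127) and from 36.6 to 54.1 CPM in tumors (median 47.3). Its log2 fold change was −1.41 (SE 0.15, adjusted p = 4.7e-06 by edgeR). Dhcr7, which reduces the product of Sc5d to cholesterol, ran from 37.7 to 58.1 CPM in benign tissue (median 45.0) and from 70.8 to 134 CPM in tumors (median 83.4), with a log2 fold change of 0.99 (SE 0.18, adjusted p = 4.3e-04 by edgeR). These neighbouring enzymes thus changed in opposite directions, each without overlap of the groups.

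The steps that remove the C4 methyl groups come before Sc5d. Msmo1, the C4 methyl oxidase, fell by 0.98 on the log2 scale (22.9 to 40.3 CPM in the benign samples, 10.5 to 26.5 CPM in tumors, adjusted p = 0.0032 by edgeR). Nsdhl, which acts with Msmo1 in removing the C4 methyl groups, fell by 0.72 without overlap (50.4 to 81.4 CPM against 35.5 to 46.2 CPM, adjusted p = 5.0e-04 by edgeR). Hsd17b7, the reductase of the same complex, rose by 0.49 (11.0 to 20.3 CPM against 16.1 to 30.0 CPM, adjusted p = 0.033 by edgeR). So the 3 enzymes that work together on the C4 methyl groups did not share a direction.

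Cyp51, the C14 demethylase, and Tm7sf2, the C14 reductase that follows it, did not pass the test. Cyp51 ran from 22.8 to 60.3 CPM in benign tissue (median 40.5) and from 20.0 to 79.1 CPM in tumors (median 30.5), with a log2 fold change of −0.14 (SE 0.33, adjusted p = 0.74). Tumor 1 held the 79.1 CPM and the other 5 tumors reached 33.9. Without tumor 1 the log2 fold change of Cyp51 was −0.45 (adjusted p = 0.15 by edgeR). Tm7sf2 ran from 12.8 to 14.1 CPM in benign tissue (median 13.1), the narrowest benign range of the set, and from 6.46 to 15.2 CPM in tumors (median 9.82), with 5 tumors below every benign sample and tumor 5 above them all. Its log2 fold change was −0.40 (SE 0.21, adjusted p = 0.12), and without tumor 5 it was −0.49 (adjusted p = 0.041 by edgeR). Ebp, the isomerase of the sterol B ring, rose by 0.29 (33.5 to 44.7 CPM in the benign samples, 34.4 to 54.9 CPM in tumors, adjusted p = 0.069 by edgeR), with 5 of 6 tumors above every benign sample and tumor 5 at 34.4. The call for Ebp was lost without benign 6 (adjusted p = 0.13) and without benign samples 3, 4 and 6 (adjusted p = 0.16).

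The genes that sense sterols were split between a large fall and 2 rises. Insig1, the ER anchor that retains SCAP, ran from 264 to 625 CPM in benign tissue (median 371) and from 25.4 to 137 CPM in tumors (median 42.8). The groups did not overlap. Insig1 averaged 389 ± 135 CPM in the benign samples and 54.6 ± 42.3 CPM in tumors (n = 6 per group), a 7.14-fold lower level in tumors with a log2 fold change of −2.84 (SE 0.43, adjusted p = 9.4e-05 by edgeR). Tumor 1, at 137 CPM, lay far above the other 5 tumors (25.4 to 53.9 CPM), and without it the log2 fold change was −3.29.

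Srebf2, which encodes SREBP2, moved the other way. It ran from 98.0 to 154 CPM in benign tissue (median 133) and from 217 to 286 CPM in tumors (median 263), and every tumor was above every benign sample. The mean level was 131 ± 24.6 CPM in the benign samples and 255 ± 29.1 CPM in tumors (n = 6 per group), and the log2 fold change of Srebf2 was 0.96 (SE 0.14, adjusted p = 6.8e-05 by edgeR). Scap, the escort of SREBP2, rose by 0.77 on the log2 scale without overlap (77.0 to 113 CPM against 138 to 174 CPM, adjusted p = 5.5e-05 by edgeR).

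Insig2, the second INSIG gene, did not pass the test. It ran from 36.3 to 63.4 CPM in benign tissue (median 44.3) and from 42.0 to 59.9 CPM in tumors (median 49.8), with a log2 fold change of 0.10 (SE 0.16, adjusted p = 0.59). Without benign samples 3, 4 and 6 the log2 fold change of Insig2 was 0.42 (adjusted p = 0.037 by edgeR). The log2 ratio of Insig2 to Insig1 CPM within a sample lay between −3.51 and −2.54 in benign tissue and between −1.70 and 1.24 in tumors.

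Promoter sequence was read for genes on both sides of this split, since SREBP2 acts through short elements near the start of its target genes, usually together with the factor NF-Y. RefSeq windows of 300 bases (250 before the start site and 50 after it, build GRCm38.p6, the assembly also called mm10) were found for 26 of the 33 genes, in 33 windows in all because some genes have several starts. The letters CACNCCAC, a core of the sterol response element, were searched on both strands. They occurred in the windows of 3 genes, Acat2, Hmgcs1 and Insig1. By call, these were 3 of 13 genes that fell, 0 of 6 that rose and 0 of 7 that were not called. The core lay in 3 of the 33 windows (9.09%) and in 6.24% of all 32851 windows. With 3 matches, no link between the core and a direction can be drawn. The letters CCAAT, the NF-Y box, occurred on either strand in 20 of the 33 windows (60.6%), 1 for each of 20 genes, and in 37.4% of all windows. By call, CCAAT was in the windows of 5 of 6 genes that rose, 9 of 13 that fell and 6 of 7 that were not called. These by-call counts are of genes, and the share of 37.4% is of windows, so they cannot be compared directly. These motifs do not overlap each other in the windows shown. A match describes letters only and does not show that a factor was bound. The windows below are given 5′ to 3′ on the + strand, with matches to either motif in capitals (CCAAT reads ATTGG on the other strand), for the synthase and the sensor with the large falls and for an enzyme and the regulator that were higher in every tumor. In Hmgcs1 (chr13:119690101-119690400) the sterol core began 136 bases before the start site, and in Insig1 (chr5:28071162-28071461) 9 bases before it. Of these 2 spellings, Lss (chr10:76531355-76531654) and Srebf2 (chr15:82147019-82147318) held only CCAAT, 62 and 135 bases before the start site. The search misses near spellings, such as caccccat in the Srebf2 window, which differs from the core in its last base.
Hmgcs1: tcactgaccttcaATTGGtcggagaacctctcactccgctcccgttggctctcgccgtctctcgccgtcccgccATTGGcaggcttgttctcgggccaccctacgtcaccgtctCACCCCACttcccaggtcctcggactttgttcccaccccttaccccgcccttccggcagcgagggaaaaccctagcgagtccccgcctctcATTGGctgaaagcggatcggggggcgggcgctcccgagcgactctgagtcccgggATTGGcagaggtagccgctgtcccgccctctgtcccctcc
Insig1: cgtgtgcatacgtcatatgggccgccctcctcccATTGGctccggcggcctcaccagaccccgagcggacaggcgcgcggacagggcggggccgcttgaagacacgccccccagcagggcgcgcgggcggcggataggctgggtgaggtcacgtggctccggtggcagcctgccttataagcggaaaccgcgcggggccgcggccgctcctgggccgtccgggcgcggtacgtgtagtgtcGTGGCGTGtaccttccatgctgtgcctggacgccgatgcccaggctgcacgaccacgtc
Lss: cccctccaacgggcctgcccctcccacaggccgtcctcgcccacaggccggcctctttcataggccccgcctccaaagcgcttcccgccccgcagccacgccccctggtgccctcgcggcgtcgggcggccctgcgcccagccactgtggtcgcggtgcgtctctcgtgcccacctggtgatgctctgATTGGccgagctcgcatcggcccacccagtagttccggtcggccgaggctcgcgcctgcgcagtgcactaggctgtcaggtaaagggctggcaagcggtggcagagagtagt
Srebf2: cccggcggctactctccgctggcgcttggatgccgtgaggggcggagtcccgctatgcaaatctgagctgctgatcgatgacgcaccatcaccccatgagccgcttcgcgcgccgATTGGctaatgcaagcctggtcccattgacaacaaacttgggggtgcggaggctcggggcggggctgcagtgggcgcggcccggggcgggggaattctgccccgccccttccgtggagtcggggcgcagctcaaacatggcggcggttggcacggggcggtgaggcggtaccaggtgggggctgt

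When the 2 motifs were chosen, 11 other spellings were searched in the same windows. CACCCCAC was found for Acat2 and Hmgcs1 (2.87% of all windows), TCACNCCAC for Hmgcs1 (1.24%), TCACCCCAC for Hmgcs1 (0.551%) and TCACNCNAC for Hmgcs1 and Nsdhl (2.70%), and these spellings overlap CACNCCAC in part. CACGTG was found for 6 genes, Abca1, Dhcr7, Hsd17b7, Insig1, Sc5d and Scap (7.15% of all windows), and GGGCGG for 22 genes (35.7%). These are counts of genes, some with several windows, while the percentages are of windows, so they cannot be compared directly. GCACGTGC (0.411%), TGACGTCA (1.79%), TGACGCAA (0.490%) and both spellings tried of DR4, the repeat that LXR binds (0.0152% and 0.0213%), were found for none of the 26 genes. CCAAT and CACGTG thus occurred both among genes that rose and among genes that fell.

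**Figure D3:**
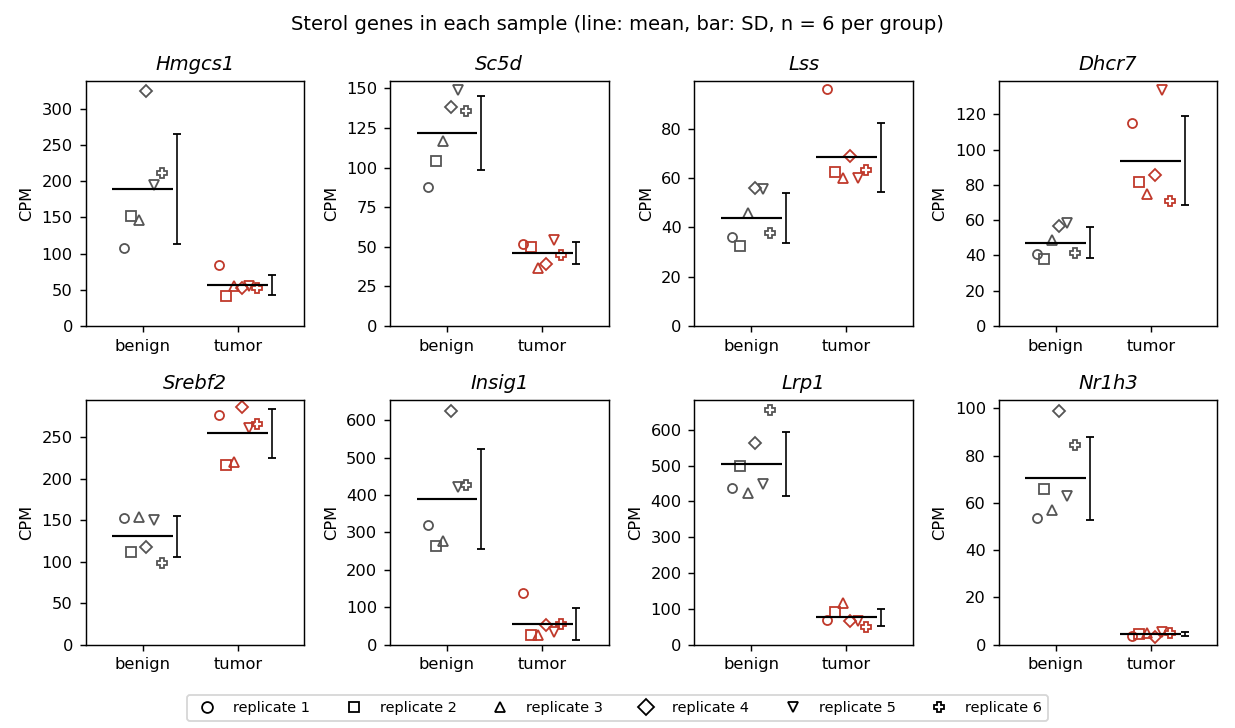
CPM of 8 sterol genes in each sample (y axes from 0, with symbols for replicate 1 to 6, a line at the mean and a bar of 1 SD, n = 6 per group; equal replicate numbers in both groups are different mice). For each of these genes the groups do not overlap, with Lss, Dhcr7 and Srebf2 higher in every tumor and Hmgcs1, Sc5d, Insig1, Lrp1 and Nr1h3 lower in every tumor.

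Both uptake receptors were lower in tumors. Lrp1, a large endocytic receptor for remnant lipoproteins, ran from 423 to 654 CPM in benign tissue (median 473) and from 48.8 to 115 CPM in tumors (median 67.3). The groups lay far apart, with means of 504 ± 89.6 CPM and 75.5 ± 23.5 CPM (n = 6 per group) and a log2 fold change of −2.74 (SE 0.21, adjusted p = 2.5e-07 by edgeR). Scarb1, the HDL receptor that takes up cholesteryl esters, ran from 152 to 234 CPM in benign tissue (median 172) and from 75.9 to 103 CPM in tumors (median 88.4), with a log2 fold change of −1.03 (SE 0.13, adjusted p = 1.6e-05 by edgeR). Lrp1 is expressed by adipocytes, fibroblasts and macrophages, whose marker sums were also lower in tumors, and their part in its fall was not tested.

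Inside the cell, the pair of proteins that release cholesterol from lysosomes moved in opposite directions. Npc1, the membrane protein of the pair, ran from 44.3 to 54.0 CPM in benign tissue (median 48.5) and from 67.4 to 104 CPM in tumors (median 89.5), with every tumor above every benign sample and a log2 fold change of 0.86 (SE 0.11, adjusted p = 2.1e-05 by edgeR). Npc2, the soluble protein that hands cholesterol to Npc1, ran from 336 to 568 CPM in benign tissue (median 448) and from 181 to 211 CPM in tumors (median 203), with a log2 fold change of −1.17 (SE 0.12, adjusted p = 4.6e-06 by edgeR). Every tumor was below every benign sample for Npc2. Stard4, a cytosolic sterol carrier, did not pass the test, with 15.3 to 29.2 CPM in benign tissue (median 22.3), 20.5 to 34.1 CPM in tumors (median 23.7) and a log2 fold change of 0.16 (SE 0.18, adjusted p = 0.48).

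Soat1, which esterifies cholesterol for storage, did not pass the test either. It ran from 19.2 to 49.7 CPM in benign tissue (median 29.9) and from 19.3 to 38.0 CPM in tumors (median 30.1), with a log2 fold change of −0.12 (SE 0.23, adjusted p = 0.66). Benign 1, which held the B and T cell transcripts, had the 49.7 CPM, and without it the log2 fold change of Soat1 was 0.10 (adjusted p = 0.71).

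The liver X receptor genes gave the widest contrast of the set. Nr1h3, which encodes LXR alpha, the form known from fat, liver and macrophages, ran from 53.7 to 98.9 CPM in benign tissue (median 64.3) and from 3.10 to 5.50 CPM in tumors (median 4.49). The means were 70.4 ± 17.6 CPM and 4.35 ± 0.889 CPM (n = 6 per group), a 16.2-fold lower level in tumors, and the log2 fold change was −4.01 (SE 0.20, adjusted p = 8.1e-09 by edgeR), the largest of the set. Nr1h2, which encodes the widely expressed LXR beta, ran from 94.1 to 113 CPM in benign tissue (median 105) and from 95.3 to 118 CPM in tumors (median 107), with a log2 fold change of 0.027 (SE 0.08, adjusted p = 0.80). Benign samples 4 and 6 were highest for Nr1h3, at 98.9 and 84.3 CPM, and were also highest for the adipocyte marker sum, at 18656 and 15309 CPM. The part of the adipocyte difference between groups in the fall of Nr1h3 was not tested.

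The exporters varied widely between samples of the same group. Abca1, which loads cholesterol onto lipid-poor apolipoproteins, ran from 76.1 to 178 CPM in benign tissue (median 149) and from 44.5 to 168 CPM in tumors (median 71.3). Of the 6 tumors, 4 lay below every benign sample, while tumor 2 reached 168. The log2 fold change of Abca1 was −0.74 (SE 0.31, adjusted p = 0.058 by edgeR), and the call was lost in 7 of 12 fits that left out 1 sample, those without benign 1, 2 or 6 or tumor 1, 3, 5 or 6 (adjusted p of 0.11 to 0.15). Abcg1, which exports cholesterol to HDL, ran from 27.2 to 101 CPM in benign tissue (median 49.4) and from 20.9 to 92.3 CPM in tumors (median 56.9), and its log2 fold change was 0.013 (SE 0.37, adjusted p = 0.98).

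Single samples stood apart across the synthesis genes. Tumor 1 had the highest tumor value for 9 of the 19 enzymes and the lowest for none, and at the same time the highest tumor value of Insig1 and the lowest of Abca1 (44.5 CPM) and Abcg1 (20.9 CPM). Tumor 3 was the lowest tumor for 6 of the 19 enzymes and the highest for 1. In benign tissue, samples 1 and 2 were each the lowest for 8 of the 19, and samples 5 and 4 were the highest for 7 and 6. The mean log2 CPM of the 19 enzymes was 5.18 to 5.80 in benign tissue and 4.76 to 5.32 in tumors, with tumor 1 at 5.32 and the other tumors at or below 5.03.

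Ratios within a sample put the opposite moves side by side. The pairs were chosen after the values were seen, and no test is given. The log2 ratio of Sqle to Hmgcs1 CPM was −3.14 to −1.21 in benign tissue and −0.08 to 0.52 in tumors. The ratio of Dhcr7 to Sc5d was −1.72 to −1.11 in benign tissue and 0.67 to 1.31 in tumors, and that of Srebf2 to Insig1 was −2.42 to −0.85 in benign tissue and 1.02 to 3.12 in tumors. Tumor 1 gave the lowest tumor ratio of Srebf2 to Insig1, and the other tumors lay at 2.30 or above. The ratio of Npc1 to Npc2 was −3.48 to −2.85 in benign tissue and −1.56 to −0.97 in tumors, and that of Nr1h2 to Nr1h3 was 0.16 to 1.07 and 4.43 to 5.09. In all 6 pairs plotted, benign and tumor samples did not overlap.

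**Figure D4:**
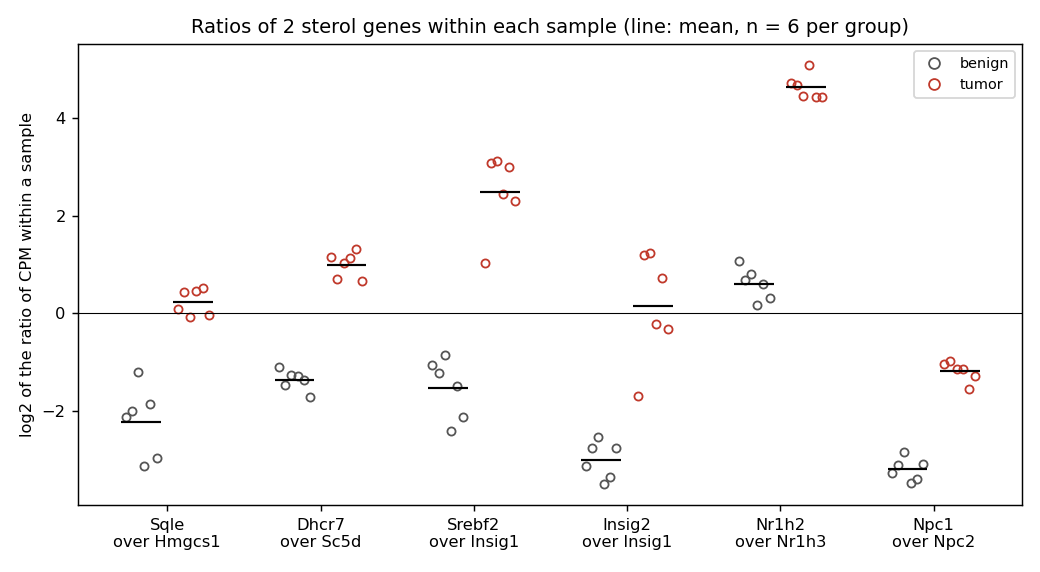
Log2 ratio of the CPM of 2 sterol genes within each sample (y axis) for 6 pairs, with 1 point per sample, a line at the group mean and n = 6 per group. Benign and tumor points are separate for each pair, and for Insig2 over Insig1 tumor 1 lies lowest of the tumors at −1.70.

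Levels of different genes were compared per kilobase of exon. In benign tissue the highest of the 33 genes per length were Insig1 (144 ± 49.9 CPM per kb, SD, n = 6), Npc2 (136 ± 22.6) and Scarb1 (71.0 ± 12.5), and the highest enzymes were Hmgcs1 (54.3 ± 21.7) and Acat2 (45.7 ± 18.0). In tumors Npc2 (60.6 ± 3.13), Nr1h2 (53.1 ± 3.90) and Srebf2 (50.1 ± 5.73) led, and the highest enzymes were Fdps (29.7 ± 9.25), Dhcr7 (28.2 ± 7.60), Ebp (28.0 ± 4.27) and Sqle (24.2 ± 5.75), whose spreads overlap. Insig1 was at 20.2 ± 15.7 CPM per kb in tumors. Nr1h3 was the lowest of the set per length in tumors, at 2.02 ± 0.414 CPM per kb, against 32.8 ± 8.18 in benign tissue.

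Other genes of the pathway, from lists fixed with earlier results of these data known, were counted in the same fit. Of 13 tested genes that process SREBPs or regulate INSIG and SCAP, 8 rose (61.5%, against 28.2% of all genes tested), 1 fell and 4 were not called. The one that fell was Erlin1, named after its values were seen, whose call (log2 fold change −0.26, adjusted p = 0.052 by edgeR) was lost in 8 of 12 fits that left out 1 sample. Srebf1, which encodes the related factor SREBP1, went from 589 ± 98.1 to 2206 ± 791 CPM (n = 6 per group), a log2 fold change of 1.91 (SE 0.23, adjusted p = 1.5e-05 by edgeR). Erlin2, an ER protein that binds the SREBP and SCAP complex, rose by 1.10, and Rnf145, a ubiquitin ligase of the same membrane, rose by 0.80 on the log2 scale. Both proteases that cut SREBPs in the Golgi, named here after their values were seen, rose without overlap of the groups, Mbtps1 by 0.54 and Mbtps2 by 0.56 on the log2 scale.

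Of the 5 other synthesis genes tested, 1 fell (20.0%, against 34.8% of all genes tested) and none rose. It was Acat1, the mitochondrial thiolase, with a log2 fold change of −0.98 (adjusted p = 0.0057 by edgeR). Of 10 other genes of lipoprotein uptake, 1 rose and 2 fell. Vldlr, the VLDL receptor, rose by 0.88 on the log2 scale, and Lpl, the lipase that frees fatty acids from lipoproteins, and the scavenger receptor Cd36 fell by 7.58 and 6.54. Lpl and Cd36 are abundant in adipocytes, and Cd36 was singled out by the study in these samples.

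Of 9 other genes of sterol transport and ester handling, 7 rose (77.8%, against 28.2% of all genes tested) and 1 fell. The ER sterol carrier Gramd1c rose by 1.75 and Osbpl2, an oxysterol-binding family member, by 1.04 on the log2 scale, while Lipe, the hormone-sensitive lipase of adipocytes, which the study also singled out, fell by 5.77. Of 12 other genes of export, HDL and oxysterol metabolism, 1 rose and 8 fell (66.7%, against 34.8% of all genes tested). Pltp, the phospholipid transfer protein, had a log2 fold change of −4.01, Cyp27a1, which makes an oxysterol that activates LXR, −3.22, and Rxrg, a partner of nuclear receptors, −2.92 (adjusted p = 0.035 by edgeR). Rxrg was uneven, at 7.49 to 38.3 CPM in the benign samples and 0 to 13.2 CPM in tumors. Pltp ran from 139 to 261 CPM in the benign samples and from 10.9 to 18.7 CPM in tumors, with no overlap. The part of the adipocyte difference between groups in the fall of Pltp was not tested.

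Of 12 tested genes that use isoprenoids for other ends, 2 rose (16.7%), 3 fell (25.0%) and 7 were not called, shares below those of all genes tested (28.2% and 34.8%), with a median log2 fold change of 0.13. Fnta, a shared subunit of the farnesyl and geranylgeranyl transferases, fell by 0.65 without overlap (86.9 to 129 CPM against 61.6 to 74.1 CPM). Pdss1 and Pdss2, which make the tail of coenzyme Q, fell by 0.60 and 0.76 on the log2 scale, and the call for Pdss1 (adjusted p = 0.06 by edgeR) was lost in 8 of 12 fits that left out 1 sample.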

How the data were processed

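The authors enriched poly A RNA, prepared stranded libraries and quantified transcripts with Salmon against mm10, and the table they deposited holds estimated counts for each gene, as whole numbers without scaling to library size. The version of Salmon and the annotation are not given in the sources used here. Labels placed each sample in the tumor or the benign group (n = 6 each), and no column was without a sample (0 columns). The study describes the samples as biological replicates, and replicates of a group differed by more than counting noise.

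Low genes were removed by filterByExpr (at least 10 counts in enough samples and 15 in total), libraries were scaled by TMM, and groups were tested two-sided by quasi-likelihood in edgeR 4.0.16 (R 4.3.3) with Benjamini-Hochberg adjustment over 13191 genes and the study's threshold of 0.1. The standard error is the log2 fold change divided by the square root of F. The common biological coefficient of variation was 0.351. Log2 CPM used 2 added counts. Each of the 33 genes was also compared by a two-sided exact permutation test over 924 regroupings, whose smallest p-value is 0.00216. Exon lengths came from GENCODE M21, which may differ from the authors' annotation. Promoter windows came from RefSeq. The scripts were tested on simulated counts. Depth, 5240853 to 8588567 counts per sample, sets the precision of low genes.

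Alternatives were DESeq2 1.42.0 (the study's tool), upper-quartile scaling, total counts, 2 other filters, a threshold of 0.05, a block for replicate number, omission of each sample, and omission of benign 3, 4 and 6. The genes, lists and alternatives were chosen with earlier results of these data known. All 33 genes are named, with full values for called genes that changed by at least 1 on the log2 scale, the 2 largest of each role and genes not called. From each other list, up to 3 called genes of largest change are named, and Erlin1, Mbtps1, Mbtps2 and Acat3 were named beyond that rule after their values were seen.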

Additional observations from a re-analysis of the deposited data

Results flagged for a closer look

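Within 4 of the 66 sets of 6 values (33 genes in 2 groups), 1 sample lay far from the other 5 by Dixon's 95% criterion, and chance alone gives about 1 in 20. Mvk in benign 1 was lowest of its group at 16.5 CPM, with the next sample at 26.7 CPM. Pmvk in benign 4 was highest at 80.9 CPM, with the next at 45.9 CPM, and benign 4 also held the most brown fat and adipocyte marker transcripts. Lss in tumor 1 was highest at 96.2 CPM, with the next at 69.0 CPM, and tumor 1 was the highest tumor for 9 of the 19 synthesis enzymes. Ebp in tumor 5 was lowest at 34.4 CPM, with the next at 47.6 CPM.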

How the results depend on the processing

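All 33 calls and directions were the same under upper-quartile scaling, total counts, DESeq2 and both other filters on low counts, with 8 genes higher and 16 lower each time. At a threshold of 0.05, 7 were higher and 15 lower, and of all 13191 genes tested 3271 were higher and 4159 lower. Leaving out 1 sample gave 7 to 8 genes higher and 14 to 17 lower, and the genes whose calls moved were Abca1, Fdps, Ebp, Idi1, Ggps1 and Tm7sf2. Among all genes tested, the fits that left out 1 sample gave 3539 to 4188 higher and 4208 to 4551 lower. No called gene changed sign in any of these alternatives. Without benign 3, 4 and 6 the 19 enzymes had a median log2 fold change of −0.36 in place of −0.57 and the 10 handling genes −0.61 in place of −0.43, and the latter was −0.28 without benign 1 or without tumor 1. The causes were not tested.

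Replicate numbers do not pair the samples, since tumors and benign tissue came from different mice. The correlation of same-numbered samples, as deviations from their group means, was −0.124 to 0.103, over 0.1 in 1 of 6 pairs. With the replicate number as a block, 7 genes were higher and 16 lower, and Ebp was lost (adjusted p = 0.15 by edgeR). Among all genes tested the block gave 3473 higher and 4237 lower.

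By the exact permutation test, Ebp reached p = 0.0563 and each of the other 23 called genes was at or below 0.0346. Among genes that were not called, the standard errors were largest for Abcg1 (0.37) and Cyp51 (0.33) on the log2 scale.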

Other observations

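The spread between samples of a group was itself uneven across the 33 genes. The labels do not name the mouse of each sample. The coefficient of variation of CPM over 6 samples had a median of 23.2% in benign tissue, from 3.69% for Tm7sf2 to 47.3% for Abcg1, and a median of 20.9% in tumors, from 5.17% for Npc2 to 77.5% for Insig1. Tm7sf2 went from the most even gene in benign tissue to 33.7% in tumors, and Npc2 from 16.6% to 5.17%. Nr1h2 was even in both groups, at 6.66% and 7.34%, and Abcg1 was uneven in both, at 47.3% and 49.2%.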
